A study of Mus musculus with 6 samples.

Results

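The red cell miRNAs miR-451a, miR-144 and miR-486 were followed in small RNA libraries of mouse oligodendrocytes, which make myelin in the brain, and of the extracellular vesicles (EVs) collected from their medium. They were 6 mature miRNAs of 1906 in the tables, found by name: miR-451a, miR-144-3p, miR-144-5p, miR-486a-5p, miR-486b-5p and miR-486a-3p. All 6 had at least 1 read, as did 1015 of the 1906. The study concerned miRNAs in supplements of serum-free media that come down along with EVs, and miRNAs of red cells are widely used as markers of blood-derived material. No library of medium alone was analysed here, so a level in the EV libraries does not say where a miRNA came from.

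Both groups came from primary cultures of C57BL/6N embryos at day 14, grown in Sato medium with 1% horse serum, washed, and then kept without serum for 24 h in Sato with B27 (a neural cell supplement). The EVs group held 3 libraries from the pellet of a last spin at 100000 g for 2 h, from cultures of 5 to 6 days in vitro. The Cells group held 3 libraries of whole cells at 6 days. Such a pellet can also hold particles that are not vesicles. Total counts were 313766 to 689475 in EV libraries and 126910 to 202358 in cell libraries, so that 1 read was worth 1.45 to 3.19 CPM, counts scaled to a common library size, in EVs, but 4.94 to 7.88 CPM in cells. Where 0 reads were counted, up to 3 could have been missed, or 14.8 to 23.6 CPM in a cell library. The 5 lineage miRNAs used to check the label, those of miR-219a, miR-338 and miR-138, had reads in both groups and summed to 33960 to 43430 CPM in the cells.

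miR-144 and miR-451a are cut from 1 primary transcript that the transcription factor GATA1 switches on in red cell precursors, and miR-451a is among the most abundant miRNAs of mature red cells. Most miRNAs are cut out of their hairpin by Dicer, but the hairpin of miR-451a is too short for it and is cut by the Argonaute protein AGO2, which leaves a strand that runs round the loop. miR-486 lies within Ank1, the gene of the red cell membrane protein ankyrin, and is also abundant in striated muscle.

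The locus of miR-144 and miR-451a is shown because miR-451a had the largest contrast between EVs and cells, while miR-144 had few reads. Its mature sequences are given as in RefSeq on build GRCm38.p6 (3 of the 6 members matched by name). All are written 5′ to 3′ with the seed, bases 2 to 8, in capitals.
miR-451a: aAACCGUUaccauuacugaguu
miR-144-3p: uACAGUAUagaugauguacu
miR-144-5p: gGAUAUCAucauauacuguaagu
None of these seeds was found in another of the 1679 mature miRNA names of that table, and only miR-101a-3p shared bases 2 to 7 with miR-144-3p. The 2 hairpins below show the difference in how these miRNAs lie in their precursors, with mature parts in capitals.
Mir451a: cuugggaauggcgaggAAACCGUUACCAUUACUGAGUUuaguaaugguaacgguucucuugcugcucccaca
Mir144: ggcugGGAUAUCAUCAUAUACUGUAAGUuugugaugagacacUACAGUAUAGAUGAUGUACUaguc
On GRCm38.p6, both are on the plus strand of chromosome 11, Mir144 at 78073005 to 78073070 and Mir451a at 78073170 to 78073241, with 99 bases between them. The deposited counts were made on the older build mm9, so these positions describe the sequences only. In a predicted fold (RNAfold 2.7.2), the first 18 bases of miR-451a lay in the stem and the last 4 filled the loop. Both miR-144 arms lay outside their loop, 1 on each side. In the gene table of the same build, the gene of mir-486b lay inside that of mir-486a, and mir-486a inside Ank1. miR-486a-5p and miR-486b-5p are known to have the same mature sequence, so their reads cannot be separated.

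As a share of all counts, the 6 miRNAs made up 0.856%, 0.587% and 0.442% in EVs replicates 1, 2 and 3, and 0.0352%, 0.0331% and 0.0301% in Cells replicates 1, 2 and 3. The lowest EV library thus stood far above the highest cell library, whose 95% exact binomial interval of counting error reached 0.0458%. In such bulk libraries fewer cells of a type and less RNA per cell cannot be told apart. Means were 0.628% ± 0.210 (SD, n = 3) in EVs and 0.0328% ± 0.00255 (n = 3) in cells. Without miR-451a the means were 0.191% ± 0.0577 and 0.0301% ± 0.00340.

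miR-451a, in EVs the highest of the 6 miRNAs, stood at 5981, 4280 and 2841 CPM in EVs replicates 1 to 3, on 2578, 1343 and 1959 reads. In Cells replicates 1 to 3 it stood at 12.8, 55.2 and 14.8 CPM, on 2, 7 and 3 reads. The groups did not come near each other, and in rank by count it was the 41st to 64th miRNA in EV libraries and the 278th to 402nd in cell libraries. Means were 4368 ± 1572 CPM in EVs and 27.6 ± 23.9 CPM in cells (SD, n = 3 each). By edgeR's quasi-likelihood test over the 336 miRNAs that passed a filter on low counts, with Benjamini-Hochberg (BH) adjustment, its log2 fold change was 6.97 (SE 0.50, adjusted p = 1.19e-05), ranking 1 of 336. It passed the filter through the EV libraries alone. With the reads of each group pooled, its share was 166 times as high in EVs (95% exact interval of counting error, 94.9 to 321), and 294 times (126 to 906) without Cells replicate 2, where the log2 fold change was 7.77.

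miR-144-3p, the guide arm of the neighbouring hairpin, was read 44, 17 and 18 times in EVs replicates 1 to 3, or 102, 54.2 and 26.1 CPM, and 0, 1 and 0 times in the cells. miR-144-5p was read 30, 10 and 19 times in EVs, or 69.6, 31.9 and 27.6 CPM, and 0 times in each cell library. Every EV library thus lay above every cell library for both arms, but the lowest EV values were 26.1 and 27.6 CPM. Both lay below the upper 95% limits of counting error in Cells replicate 2, 43.9 CPM for miR-144-3p and 29.1 CPM for miR-144-5p. The pooled share of miR-144-3p was 26.7 times as high in EVs, with a counting interval of 4.66 to 1069 that rests on 1 cell read in Cells replicate 2. It was 16.9 times as high without EVs replicate 1 and 15.6 times without Cells replicate 3, and without Cells replicate 2 no cell read was left. That of miR-144-5p was at least 6.66-fold higher, taken against 3 reads over the cell group and leaving aside counting error in its 59 EV reads. With that error the lower limit of a 95% exact interval was 5.25. The log2 of this bound was 2.74, and 1.96 without Cells replicate 3. Neither arm passed the filter of the main test. With no filter beyond a count above 0, edgeR called both higher, miR-144-3p with a log2 fold change of 4.31 (SE 0.92, BH-adjusted p = 3.52e-05) and miR-144-5p with an adjusted p of 3.13e-05. With a filter of 10 CPM both were also called, with edgeR BH-adjusted p = 0.0100 and 0.00628. Both arms passed that filter only through the EV libraries, so those calls are a description. When a library was left out, either arm that passed the main filter did so only through the EV libraries. miR-144-3p passed it in 4 fits. It was called without EVs replicate 3 and without Cells replicate 1 or 2 (edgeR BH-adjusted p = 0.00571, 0.0336 and 0.0162). It was not called without Cells replicate 3 (0.0565). miR-144-5p passed the filter without Cells replicate 1, 2 or 3 and was called each time (edgeR BH-adjusted p = 0.0142, 0.0147 and 0.0246).

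miR-486a-5p, the guide arm of the other red cell hairpin, had 1752, 1135 and 1076 CPM in EVs replicates 1 to 3, and Cells replicates 1 to 3 had 243, 173 and 198 CPM. The groups did not overlap, yet unlike miR-451a it was plainly present in the cells, on 38, 22 and 40 reads. Its log2 fold change was 2.20 (SE 0.29, edgeR BH-adjusted p = 0.000279), ranking 13 of 336. The second copy, miR-486b-5p, had 645, 357 and 435 CPM in EVs replicates 1 to 3, against 76.8, 63.0 and 79.1 in Cells replicates 1 to 3, and rose by 2.22 (SE 0.30, edgeR BH-adjusted p = 0.000317). With both copies added into 1 before the fit, the log2 fold change was 2.21 (SE 0.28, edgeR BH-adjusted p = 0.000216), so the pair counts as 1 sequence that was called higher.

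miR-486a-3p, the passenger arm of that hairpin, was too rarely read to resolve a difference. It was read 5, 3 and 7 times in EVs (11.6, 9.56 and 10.2 CPM) and 3, 4 and 2 times in cells (19.2, 31.5 and 9.88 CPM). The groups overlapped, and the pooled share in EVs was 0.564 times that in cells, with a counting interval of 0.231 to 1.46 that includes equal shares. It did not pass the main filter, and without a filter its log2 fold change was -1.15 (SE 0.72, edgeR BH-adjusted p = 0.326). A further pair of miRNAs from these hairpins, miR-451b, which lies on the opposite strand of the miR-451a hairpin, and miR-486b-3p, had 0 reads in all 6 libraries, which allows up to 4.35 to 9.56 CPM in an EV library.

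**Figure D1:**
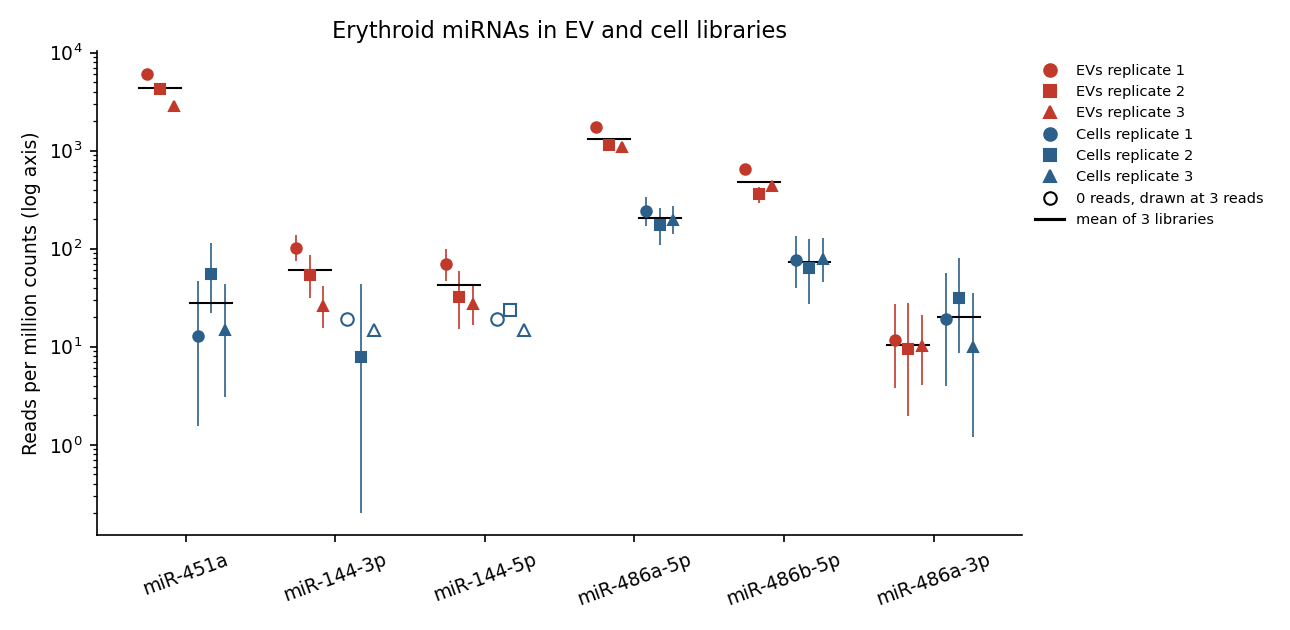
CPM (log axis) of the 6 erythroid miRNAs in each library. Filled points are libraries with reads, with 95% exact binomial intervals of counting error, open points are libraries with 0 reads drawn at the level of 3 reads, and lines are means of 3 libraries where all 3 had reads. miR-451a lies at 2841 to 5981 in EVs and at 12.8 to 55.2 in cells, while miR-486a-3p overlaps between groups.

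miRNAs such as miR-451a passed the filter only through the EV libraries, which favours a call as higher, so the counts that follow are a description. In all, 3 of the 6 names were tested and called higher, 2 of them copies of 1 sequence, so that 2 remained when the copies were added together. Among all tested miRNAs, 96 of 336 (28.6%) were called higher and 97 (28.9%) lower. At a log2 fold change of 2 or more, the same 3 names were called, again with both copies, against 16 of 336 (4.76%). Without a filter 5 of 6 names were called higher, both copies included, against 12.2% of 1015 miRNAs. For 5 of the 6 names, each EV library exceeded each cell library in CPM, against 22.0% of the 1015 miRNAs with a read, and the exact permutation p for each was 0.1, two-sided, the smallest that 3 against 3 libraries can give. These tests exchange all libraries freely, and within 3 pairs of the same number the smallest p would be 0.25. Over the 336 tested miRNAs the median difference on the log2 scale was 0.06 under the scaling used, a trimmed mean of M-values (TMM), and 0.54 with library size only. With library size only, the log2 fold changes of miR-451a (7.41) and miR-486a-5p (2.68) were larger by about that shift.

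**Figure D2:**
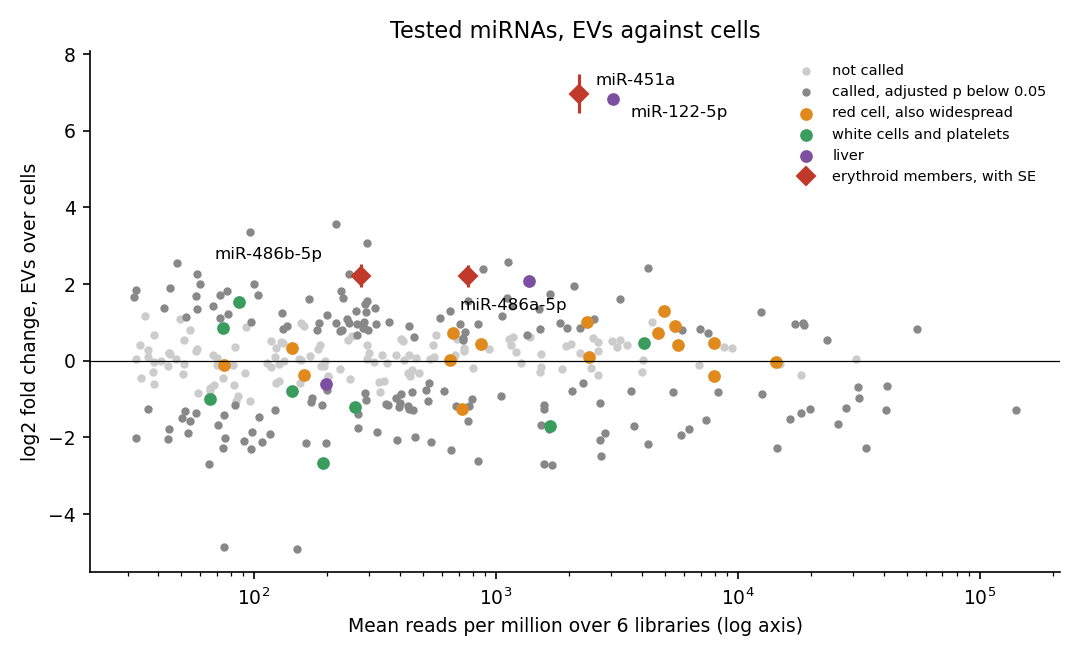
Mean level over the 6 libraries (log axis) against the log2 fold change of EVs over cells for the 336 tested miRNAs. Diamonds with SE bars are the tested erythroid miRNAs, and other colours mark lists of red cell, white cell and platelet, and liver miRNAs. miR-451a (6.97) and miR-122-5p (6.84) stand above all others, and both miR-486 5p rows lie near 2.2.

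The shares of miR-451a and of miR-486 among the erythroid reads did not overlap between the groups. The share of miR-451a was 69.9%, 73.0% and 64.3% of the reads of the 6 miRNAs in EVs replicates 1 to 3, but 3.64%, 16.7% and 4.92% in Cells replicates 1 to 3. The 5p rows of miR-486 gave 25.4% to 34.2% in EVs and 71.4% to 91.8% in cells, on totals of 42 to 61 member reads per cell library. The share of the miR-144 arms did overlap, at 1.22% to 2.01% in EVs and 0%, 2.38% and 0% in cells. In EVs the order by level was miR-451a, the miR-486 5p copies, the miR-144 arms and miR-486a-3p. The 2 arms of miR-144 overlapped each other over libraries, and no other neighbours in that order did. In cells the order was the miR-486 5p copies, miR-451a and miR-486a-3p, the last 2 overlapping, with miR-144 at the limit of detection. These are shares of reads, since adapters join some small RNAs more readily than others, and each read stands for 1 mature miRNA, so no length enters.

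**Figure D3:**
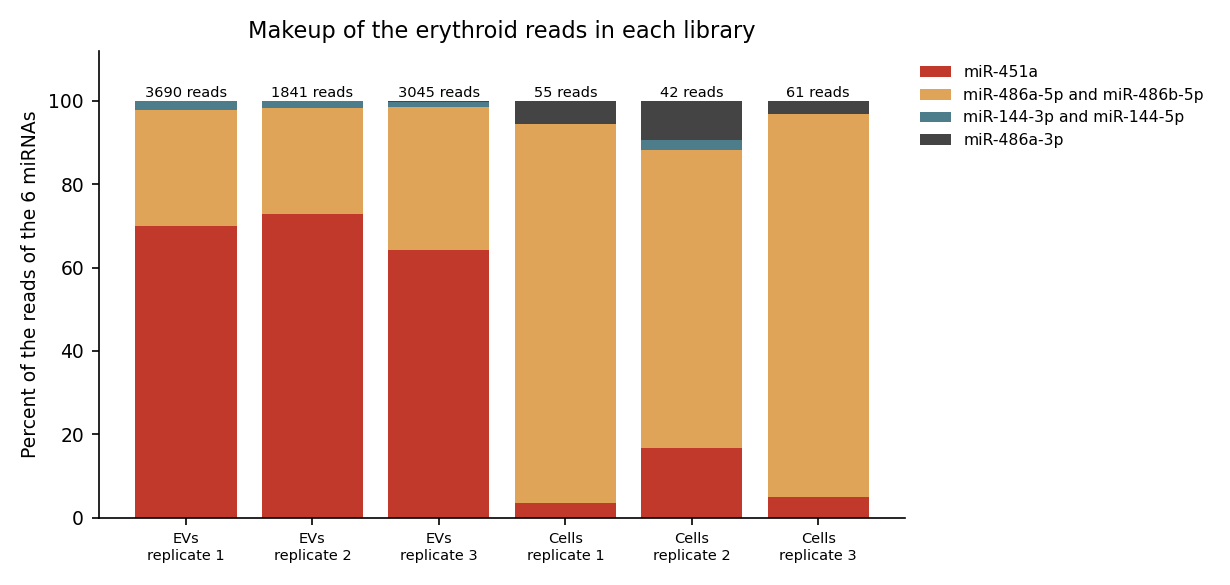
Percent of the reads of the 6 erythroid miRNAs that came from each hairpin arm, per library, with the number of those reads above each bar. miR-451a makes up 64.3% to 73.0% in EVs and 3.64% to 16.7% in cells, where the miR-486 5p rows prevail.

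Ratios within a library do not depend on scaling between libraries, and 11 were compared, with 0.5 reads added to each count. The ratio of miR-451a to miR-486a-5p was 3.41, 3.77 and 2.64 in EVs replicates 1 to 3 and 0.0649, 0.333 and 0.0864 in Cells replicates 1 to 3. On the log2 scale the EV mean was 4.72 above the cell mean, with no overlap (exact permutation p = 0.1, and 0.122 BH-adjusted over the 11 ratios). Read the other way, the 100 cell reads of miR-486a-5p would go with 317 reads of miR-451a at the pooled EV ratio of 3.17, and 12 were found. Relative to miR-486a-5p, miR-451a was lower in each cell library than in any EV library. The other ratios of miR-486a-5p or miR-144-3p to miR-23a-3p or miR-16-5p were also higher in each EV library than in any cell library, by 2.55 to 4.06 on the log2 scale, though those of miR-144-3p rest on 1 cell read.

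For miR-144 the depth allowed no such comparison. miR-451a outnumbered miR-144-3p by 57.9, 76.8 and 106 to 1 in EVs replicates 1 to 3. At the pooled EV ratio of 74.4, the 12 cell reads of miR-451a would go with 0.161 reads of miR-144-3p, so that the single cell read of that arm sets no ratio. The ratio of the 3p to the 5p arm of miR-144 was 1.46, 1.67 and 0.949 in EVs, with neither arm higher in all 3.

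The balance of the miR-486a arms was the next ratio. That of miR-486a-5p over miR-486a-3p was 137, 102 and 99.0 in EVs and 11.0, 5.00 and 16.2 in cells, a log2 difference of 3.53 with no overlap (exact permutation p = 0.1, BH-adjusted 0.122). At the pooled EV ratio, the 100 cell reads of the 5p arm would go with 0.81 reads of the 3p arm, and 9 were found. The 3p counts of 2 to 7 per library make each of these ratios uncertain. The split between miR-486a-5p and miR-486b-5p overlapped between the groups, with miR-486b-5p at 26.5% ± 2.45 of the pair in EVs and 26.4% ± 2.30 in cells (SD, n = 3 each). The log2 difference of that ratio was 0.03, with an exact permutation p of 0.7. How the counting divided the reads of these 2 copies is not given in the sources used here.

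Against miR-16-5p, a miRNA of red cells that most other cells also make, miR-451a stood at 0.636, 0.603 and 0.379 in EVs and at 0.00207 to 0.00565 in cells. Mean levels of miR-16-5p itself were 8005 ± 1235 CPM in EVs, close to 7839 ± 2914 CPM in cells (SD, n = 3 each). Against miR-23a-3p, which is little affected by lysis of red cells and with miR-451a forms a common index of haemolysis in plasma, miR-451a stood at 13, 24.7 and 6.84 in EVs and at 0.0420, 0.143 and 0.0293 in cells. The log2 differences were 7.27 and 7.86 (exact permutation p = 0.1 for each, BH-adjusted 0.122). miR-23a-3p was itself called lower in EVs, with a log2 fold change of -0.87 and an edgeR BH-adjusted p of 0.0386. It was not called with library size only (-0.39, adjusted p = 0.342), nor without EVs replicate 2 or Cells replicate 1 or 3, so its own level enters that ratio.

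**Figure D4:**
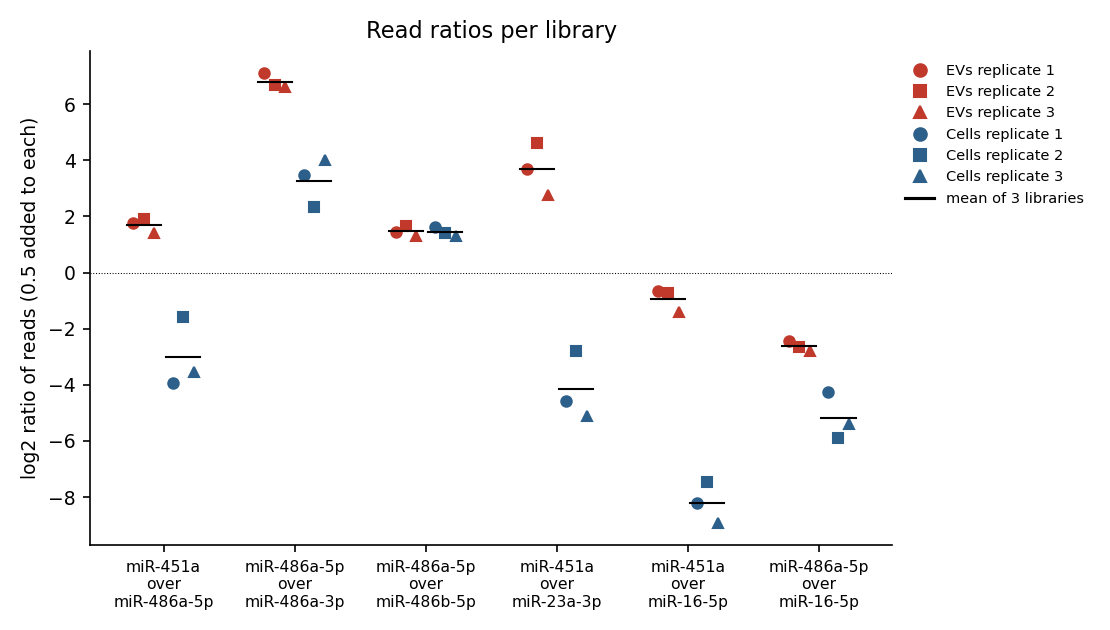
The log2 ratio of reads of 6 pairs of miRNAs in each library, with 0.5 reads added to each count and lines at means of 3 libraries. The groups separate in 5 pairs, while miR-486a-5p over miR-486b-5p has about the same ratio in EVs and cells.

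EVs replicate 1 had the highest CPM of miR-451a, both miR-144 arms, both miR-486 5p rows and miR-486a-3p. EVs replicate 3 was lowest for miR-451a, both miR-144 arms and miR-486a-5p, but not for miR-486b-5p or miR-486a-3p. In the cells, replicate 2 had the highest level of miR-451a and the lowest of miR-486a-5p. Counting intervals overlapped in both of those cell orders, and between all EV libraries for miR-486a-3p. They also overlapped between EVs replicates 2 and 3 for both miR-144 arms and miR-486a-5p, so counting did not settle these orders.

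The miRNAs with profiles most like that of miR-451a were sought among the tested miRNAs, by the distance between log2 CPM profiles centred over the 6 libraries, where the median distance was 8.42. The nearest was miR-122-5p, the main miRNA of liver cells, at a distance of 1.8. It stood at 5710, 4194 and 8316 CPM in EVs replicates 1 to 3, and the cells had 24.7 to 47.3, so it was highest in the EV library where miR-451a was lowest. miR-145a-5p, miR-344f-5p, miR-341-3p and miR-376a-3p followed at 4.65 to 5.39, with log2 fold changes of 2.58 to 3.57. For miR-486a-5p the nearest was miR-32-5p at 0.168 (median 2.77). It had 109, 73.3 and 75.4 CPM in EVs, and 7.88 to 12.8 CPM in cell libraries. Those cell levels lay below that of 3 reads (14.8 to 23.6 CPM), so this distance rests on few reads. miR-376a-3p, miR-136-3p, miR-3085-3p and miR-497a-5p followed at 0.655 to 0.807. These distances are a description over 6 libraries in 2 groups.

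Further miRNAs that are abundant in red cells but made by many other cells were listed as context. Of 18, 16 were tested, 6 were called higher in EVs and 1 lower, with a median log2 fold change of 0.375 beside 0.06 for all tested miRNAs. Over all tested miRNAs 28.6% were higher and 28.9% lower. This depended on scaling, with 11 of the list higher and 0 lower with library size only, where 148 of all 336 (44.0%) were higher and 60 (17.9%) lower. Summed over the list, EV libraries had 70630 to 77760 CPM and cell libraries 36730 to 47520 CPM, and the part of this in the results for the 6 miRNAs was not tested. The 3 most abundant were miR-92a-3p, miR-93-5p and miR-16-5p. miR-92a-3p was not called (-0.04, edgeR BH-adjusted p = 0.842) other than with library size only, as higher (0.42, BH-adjusted p = 0.0298). miR-16-5p was called lower without Cells replicate 1 (-0.64, edgeR BH-adjusted p = 0.0138), but not with all libraries (-0.41, SE 0.24, edgeR BH-adjusted p = 0.166). miR-93-5p was called higher (0.46, edgeR BH-adjusted p = 0.0351). This call was lost in a fit blocked on replicate number (BH-adjusted p = 0.0692) and when any library but Cells replicate 1 was left out. It was also lost with upper-quartile scaling and after thinning (edgeR BH-adjusted p = 0.108 and 0.0769). miR-96-5p had 0 reads in all libraries and miR-363-3p had 4 reads in EVs and 0 in cells. The largest rise in this list was that of miR-106b-5p (1.30), below the rises of miR-486a-5p and miR-451a.

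A further list held 10 miRNAs of white cells and platelets, the other formed parts of blood. Of these, 8 were tested, 1 was called higher and 4 lower, with a median of -0.897, beside 28.6% higher, 28.9% lower and a median of 0.06 over all tested miRNAs. The one called higher was miR-126a-5p, known from endothelium and platelets, with 118 to 174 CPM in EVs and 31.5 to 39.5 in cells (1.53, SE 0.34, edgeR BH-adjusted p = 0.00391). This arm passed the filter only through the EV libraries, so its call is a description. The other arm, miR-126a-3p, was also higher in each EV library than in any cell library. It was not called (0.86, edgeR BH-adjusted p = 0.0840). With library size only, 3 were higher and 1 lower, where 44.0% of all 336 miRNAs were higher and 17.9% lower. Without Cells replicate 3, 1 was higher and 1 lower, beside 72 higher and 88 lower over all miRNAs. Without Cells replicate 1, 1 was higher and 2 lower, where over all miRNAs 98 were lower and more than 98 higher. The balance of calls in the list thus depended on scaling and on those libraries. EV libraries had 5683 to 8211 CPM summed over the list, and cell libraries 4373 to 7862 CPM. Its most abundant member, miR-342-3p, was not called (0.46, edgeR BH-adjusted p = 0.0545), but was called higher without EVs replicate 3, under either other filter, by limma-voom and with library size only (0.92, 0.00218). miR-146a-5p fell by 1.71 and miR-142a-3p by 1.19 on the log2 scale, but neither was called with library size only nor without Cells replicate 3, and miR-146a-5p was also not called without Cells replicate 1. miR-223-3p, the main miRNA of neutrophils and platelets, had 28.7 to 69.6 CPM in EVs, overlapping the 32.0 to 153 CPM of the cells, and was not called (-1.01, BH-adjusted p by edgeR 0.125). miR-150-5p, a lymphocyte miRNA, had 14 reads in EVs and 0 in cells. The part of these cells or their RNA in the levels of the 6 miRNAs was not tested.

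miR-122-5p belongs to a list of 5 miRNAs of the liver. Of these 3 were tested and 2 were called higher, against 28.6% of all tested miRNAs. They were miR-122-5p (6.84, SE 0.37) and miR-192-5p (2.07, SE 0.23), while miR-194-5p was not called (-0.60, edgeR BH-adjusted p = 0.0716). Like miR-451a, miR-122-5p passed the filter only through the EV libraries, so its call is a description. The list summed to 6202 to 11230 CPM in EV libraries, against 563 to 701 in cell libraries. Its part in the result for the red cell miRNAs was not tested.

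The lineage miRNAs of the oligodendrocytes went both ways. Of 5 tested, 2 were called higher in EVs, miR-219a-5p (0.81) and miR-138-5p (0.73), and 3 lower, miR-219a-2-3p, miR-338-3p and miR-338-5p, with a median of -0.80. Over all tested miRNAs, 28.6% were higher and 28.9% lower. The most abundant, miR-219a-2-3p, had 12820 ± 1457 CPM in EVs against 23530 ± 5180 in cells (SD, n = 3 each), or -1.37 ± 0.23 (SE) on the log2 scale (edgeR BH-adjusted p = 0.000938). The call of miR-219a-5p was lost in a fit blocked on replicate number (edgeR BH-adjusted p = 0.0535) and without EVs replicate 2 or Cells replicate 2 or 3.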

How the data were processed

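Small RNA was sequenced in 3 EV and 3 cell libraries. Each library has 1 table of read counts per mature miRNA, not normalised, as deposited by the authors. The tools named, per the submitters' processing notes, were Bowtie 0.12.8, bcl2fastq 1.8.4, featureCounts 1.4.6-p4 and cutadapt 1.7.1, with the build mm9 (NCBIM37). How multi-mapping reads, strand and the random adapter bases were handled is not given in the sources used here, so copies such as miR-486a and miR-486b could share or lose reads.

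CPM were computed on total counts. EVs and cells were compared with edgeR 4.0.16 (glmQLFit, glmQLFTest, two-sided, R 4.3.3, TMM, filterByExpr at a minimum count of 10, with no covariate besides group). P-values were BH-adjusted over 336 miRNAs and called below 0.05. The fits were tested on simulated data. Ratios were compared by exact two-sided permutation tests over libraries, without pairing (scipy 1.17.1). Intervals are 95% exact binomial ones, and they and the floor of 3 reads cover counting error only. Alternatives were other scalings, filters, DESeq2 1.42.0, limma-voom (limma 3.58.1), a replicate block, thinning, and leaving out each library.

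EV and cell libraries that carry the same number had weakly correlated deviations from the group means (r over 336 miRNAs 0.115, 0.103 and 0.254). Between libraries of different numbers r was -0.14 to 0.0203. The numbers were therefore taken to pair the libraries, though the labels do not say that they share a culture. With values this small the pairing stays uncertain. Replicates may be technical, in which case p-values measure only that spread. No pair of libraries within a group was as alike as counting noise (chi-square 4.38 to 20.4 times its degrees of freedom). The members, lists and tests were chosen with earlier results of these data known. The text names all 6 members, the rows of their hairpins, the 2 reference miRNAs, the 3 most abundant miRNAs of each list, and the 5 nearest profiles. Others in the lists are named after their values were seen.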

Additional observations from a re-analysis of the deposited data

How the results depend on the processing

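miR-451a, miR-486a-5p and miR-486b-5p were called higher in EVs in each alternative fit that tested them. For miR-451a, which passed the filters only through the EV libraries, this is no sign of stability. Their log2 fold changes ran from 6.56 to 7.77, from 1.94 to 2.68 and from 1.92 to 2.70, with adjusted p-values up to 0.000316, 0.00287 and 0.00321. In the paired fit, with a replicate block, they were 6.91, 2.19 and 2.20. The block changed no call of these 3, and with it 187 miRNAs were called in place of 193, 182 of them shared. The number of members called higher was 3 to 5 when a library was left out. It was 5 with no filter, with the 10 CPM filter and without Cells replicate 1 or 2, where more members were tested. It was 2 with the miR-486 copies added together. Over all miRNAs, 96 were called higher in the main fit, 124 of 1015 (12.2%) with no filter and 120 with the 10 CPM filter. There were 77 without Cells replicate 2. Among fits that left out a library, only that without Cells replicate 1 called more than 96. How many miRNAs those fits and the 10 CPM fit tested is not given here, so no share is stated. Where a filter was set, the miR-144 arms passed it only through the EV libraries. With library size only, 148 miRNAs were called higher and 60 lower, in place of 96 and 97. The share of counts held by the 6 miRNAs was 0.191% in EVs and 0.0301% in cells without miR-451a, and 0.0400% in cells with miR-9-5p left out of the total. The differences in the log2 ratios of miR-451a to miR-486a-5p and of miR-486a-5p to miR-486a-3p were positive in each alternative, at 4.25 to 5.47 and 2.65 to 3.91. For miR-486a-5p to miR-486a-3p the lowest value, 2.65, came after thinning. There the exact permutation p was 0.2, in place of 0.1 with all reads. Ratios near equality between groups changed sign. That of miR-144-3p to miR-144-5p, main value -0.126, was 0.058 with a pseudocount of 1 and -0.39 to 0.402 without a library. That of miR-486a-5p to miR-486b-5p, main value 0.029, was -0.106 after thinning and -0.069 to 0.12 without a library. The cause of these changes was not tested. Depth limits miR-451a and miR-144 in cells, where 12 and 1 reads were found.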
